A study of Mus musculus with 9 samples.

Results

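The small leucine-rich proteins of the extracellular matrix were followed through an RNA sequencing study of copper-starved mouse fibroblasts. The 8 genes were chosen by name: Prelp, Dcn, Lum, Bgn, Fmod, Ogn and Aspn, which encode small leucine-rich proteoglycans, and Islr, which encodes a related leucine-rich protein with an immunoglobulin domain. They are 8 of 52661 gene rows, each found through its Ensembl identifier, and 7 of the 8 passed the filter on low counts that left 18408 genes tested. Lum did not pass. The set was picked with earlier results of these libraries in view, so the values of its genes are described here and no p-value is given for any of them.

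All libraries came from embryonic fibroblasts of C57BL/6 mice immortalised with the T/t antigen and grown in DMEM with modified N2, EGF and FGF-2. Wild type cells (3 libraries) were set against cells lacking both copies of Ctr1 (3 libraries, "Ctr1-null") and against the same genotype given bathocuproine disulfonic acid (3 libraries, "Ctr1-null + BCS"). Ctr1, encoded by Slc31a1, is the protein through which most copper enters mammalian cells, and BCS is a copper chelator that stays mostly outside cells. The sample labels give BCS as 500 µM for 48 hours, while the series record names the same figure in millimolar. Sample titles call the Ctr1-null cells floxed. How the allele was deleted and how many clones were used is not given in the sources used here. No wild type library received BCS, so an effect of BCS on wild type cells was not measured. The labels do not say that replicates were separate cultures, so p-values measure only the spread between these libraries, which may be technical.

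Small leucine-rich proteoglycans are secreted proteins built from tandem leucine-rich repeats that form a curved surface. Most carry chondroitin, dermatan or keratan sulphate chains. They bind fibrillar collagen and set the spacing and thickness of its fibrils, and several also hold growth factors such as TGF-beta in the matrix or signal through cell-surface receptors. By protein sequence, Dcn (decorin), Bgn (biglycan) and Aspn (asporin) belong to class I of the family, Lum (lumican), Fmod (fibromodulin) and Prelp to class II, and Ogn (osteoglycin, also called mimecan) to class III. Islr, also called Meflin, is attached to the cell surface by a lipid anchor and is known as a marker of mesenchymal stromal cells. The collagen fibrils that these proteins coat are cross-linked by lysyl oxidases, enzymes that need copper.

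The DNA just before the start site is shown for the 3 genes whose levels varied together over the libraries, Prelp, Islr and Fmod, and for Bgn, the most abundant of the 8 and the steadiest. RefSeq start sites on GRCm38.p6 were available for 6 of the 8, with Dcn and Lum missing from the table. Each line gives the 250 bases before the start, read 5′ to 3′ along the gene's strand, with motif matches in capitals. The windows are chr1:133921402-133921651 on the minus strand for Prelp, chr9:58158555-58158804 on the minus strand for Islr, chr1:134037004-134037253 on the plus strand for Fmod and chrX:73483351-73483600 on the plus strand for Bgn.
Prelp: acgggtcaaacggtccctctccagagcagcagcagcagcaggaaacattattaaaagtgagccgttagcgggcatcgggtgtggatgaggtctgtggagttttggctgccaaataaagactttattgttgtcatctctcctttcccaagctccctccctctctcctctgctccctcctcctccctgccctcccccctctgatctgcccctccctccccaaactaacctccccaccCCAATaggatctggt
Islr: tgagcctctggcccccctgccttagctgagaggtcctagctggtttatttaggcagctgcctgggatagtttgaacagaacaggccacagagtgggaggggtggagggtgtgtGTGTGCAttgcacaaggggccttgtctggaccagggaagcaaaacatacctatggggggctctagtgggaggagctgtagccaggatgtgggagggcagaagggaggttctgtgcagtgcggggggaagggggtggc
Fmod: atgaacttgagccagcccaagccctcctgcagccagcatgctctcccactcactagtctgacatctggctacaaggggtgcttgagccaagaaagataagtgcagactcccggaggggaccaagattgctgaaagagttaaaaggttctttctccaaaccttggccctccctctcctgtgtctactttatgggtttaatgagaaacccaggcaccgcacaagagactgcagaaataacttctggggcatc
Bgn: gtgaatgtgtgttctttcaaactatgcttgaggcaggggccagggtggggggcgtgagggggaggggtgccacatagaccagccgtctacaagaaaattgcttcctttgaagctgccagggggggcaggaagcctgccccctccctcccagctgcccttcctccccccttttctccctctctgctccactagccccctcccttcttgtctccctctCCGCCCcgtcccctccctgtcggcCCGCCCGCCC

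The motifs searched on both strands were the TATA box (TATAAA), the CCAAT box (CCAAT), the GC box (GGGCGG), the AP-1 site (TGACTCA) and the core of the metal response element (TGCACNC or TGCGCNC). The Prelp window held a CCAAT box that begins 15 bases before the start, a motif found in 33.8% of the 32851 windows of this length. In the Islr window a metal response element core begins 137 bases before the start, on the opposite strand, and 21.4% of all windows hold that core. The Bgn window held 3 GC boxes, beginning 34, 10 and 6 bases before the start, of which the last pair overlaps, and 32.7% of all windows hold at least 1. No letters of these motifs were found in the Fmod window, and none of the 4 windows held TATAAA (12.4% of all windows) or TGACTCA (4.46%). Prelp, Islr and Fmod thus shared none of the 5 motifs in these windows. A match is a description of letters and not evidence of binding. The last bases of the Prelp window lie in the first exon of the GENCODE model, and the Islr window lies in an intron of a longer GENCODE transcript.

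Library totals ran from 38962036 to 57206337 counts. Levels are given in CPM, counts relative to library totals scaled by the trimmed mean of M values, and 3 counts, the most that a count of 0 allows, correspond to 0.0546 to 0.0811 CPM. Such a floor covers counting error only. Slc31a1, the targeted gene, was at 56.1, 54.8 and 54.9 CPM in wild type, at 2.54, 3.88 and 1.40 in Ctr1-null and at 3.24, 2.54 and 1.69 in Ctr1-null + BCS. Each library thus lay where its labelled genotype puts it. Ctr1-null and Ctr1-null + BCS overlapped, so this gene cannot check which libraries received BCS. Wild type replicate 1 stood apart from its group: 2175 and 1964 genes (11.8% and 10.7%) differed over 2-fold between it and replicates 2 and 3, against 855 (4.64%) between those. For Ctr1-null replicate 1 the same numbers were 1222 and 1469 genes, and 869 genes differed between Ctr1-null replicates 2 and 3. Differences that these libraries move are given with and without them below. The fibroblast marker list summed to 16477 to 18516 CPM in wild type, 15469 to 18491 in Ctr1-null and 16370 to 19852 in Ctr1-null + BCS, with 0 of its 9 tested genes called in any comparison. Col1a1, Fn1 and Vim made up much of that sum, while the fibroblast markers Thy1 (0.30 to 0.50 CPM) and Fap (at most 0.22 CPM) were near the floor. The sum hides differences between libraries of a group. Pdgfra was at 65.3, 6.11 and 6.62 CPM in wild type, and Col3a1 at 11.1, 81.6 and 73.3 CPM in Ctr1-null. Vim and S100a4 were steadier, with a highest library at most 1.40 times the lowest in any group. Dcn and Lum, which are abundant in most connective-tissue fibroblasts, reached at most 2.31 CPM and 12 counts.

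Prelp, a class II protein that binds both collagen and the heparan sulphate of basement membranes, gave a graded picture. Wild type replicates 1, 2 and 3 held 1.89, 0.784 and 0.818 CPM, and its level was 1.84, 6.34 and 8.65 in Ctr1-null and 11.7, 9.65 and 16.4 in Ctr1-null + BCS. All 3 BCS libraries lay above the other 6, whereas Ctr1-null replicate 1 lay inside the wild type range and Ctr1-null replicates 2 and 3 above it. Group means were 1.16 ± 0.63 (SD, n = 3), 5.61 ± 3.46 and 12.6 ± 3.47 CPM. On the log2 scale the difference was 2.26 ± 0.54 (SE) for Ctr1-null minus wild type, 1.17 ± 0.50 for Ctr1-null + BCS minus Ctr1-null and 3.43 ± 0.56, or 10.7-fold, for Ctr1-null + BCS minus wild type. Without wild type replicate 1 the differences from wild type were 2.80 ± 0.61 and 3.96 ± 0.62. Without Ctr1-null replicate 1, Ctr1-null minus wild type was 2.67 ± 0.38 and Ctr1-null + BCS minus Ctr1-null was 0.75 ± 0.36.

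Islr had the widest range of the 7 tested genes. In counts, it had 42, 4 and 3 in wild type, 20, 151 and 288 in Ctr1-null and 244, 263 and 694 in Ctr1-null + BCS. These correspond to 0.873, 0.108 and 0.0558 CPM in wild type, 0.397, 2.93 and 5.95 in Ctr1-null and 4.44, 4.98 and 13.8 in Ctr1-null + BCS. Wild type replicates 2 and 3 were thus at or near the floor, Ctr1-null replicate 1 lay between the wild type libraries, and all 3 BCS libraries lay above all wild type ones. Ctr1-null replicate 3, however, lay above BCS replicates 1 and 2. The log2 difference was 3.13 ± 1.06 (SE) for Ctr1-null minus wild type, 1.33 ± 0.89 for Ctr1-null + BCS minus Ctr1-null and 4.45 ± 1.08, or 21.9-fold, for Ctr1-null + BCS minus wild type. That fold depends on which wild type libraries are used: the BCS mean was 8.87 times the level of wild type replicate 1 and 94.5 times the mean of replicates 2 and 3, which rests on 7 counts. Without wild type replicate 1 the log2 differences from wild type were 5.27 ± 1.38 and 6.58 ± 1.35. Without Ctr1-null replicate 1, Ctr1-null minus wild type was 3.65 ± 0.88 and Ctr1-null + BCS minus Ctr1-null was 0.80 ± 0.78. Islr shares 181 of its 2686 exon bases with Islr2, its neighbour on the same strand, which had 5 to 21 counts in every library.

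Fmod, the class II protein fibromodulin, which carries keratan sulphate and binds collagen type I, followed the same order of groups at a higher level. It was at 38.9, 6.49 and 5.73 CPM in wild type, 16.7, 39.4 and 90.0 in Ctr1-null and 75.2, 85.4 and 173 in Ctr1-null + BCS. The BCS libraries lay above all 3 wild type libraries, while the Ctr1-null libraries overlapped both of the other groups. Log2 differences were 1.51 ± 0.79 (SE) for Ctr1-null minus wild type, 1.19 ± 0.77 for Ctr1-null + BCS minus Ctr1-null and 2.70 ± 0.82, or 6.51-fold, for Ctr1-null + BCS minus wild type. Without wild type replicate 1, which held 6.38 times the mean Fmod level of replicates 2 and 3, the differences from wild type were 3.00 ± 0.69 and 4.18 ± 0.72. Without Ctr1-null replicate 1, Ctr1-null minus wild type was 1.92 ± 0.78 and Ctr1-null + BCS minus Ctr1-null was 0.78 ± 0.80.

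Ogn and Aspn, neighbours on chromosome 13, were both lowest in Ctr1-null replicate 1 and highest in BCS replicate 3. Ogn, or osteoglycin, a class III protein first found in bone, was at 35.4, 89.5 and 74.6 CPM in wild type, 15.7, 91.0 and 69.3 in Ctr1-null and 92.5, 95.8 and 173 in Ctr1-null + BCS. Aspn, a class I protein that binds collagen and calcium and is known to restrain TGF-beta in cartilage, was at 1.83, 2.68 and 2.06 CPM in wild type, 0.278, 2.15 and 2.93 in Ctr1-null and 2.42, 3.92 and 6.97 in Ctr1-null + BCS. The 3 BCS libraries lay just above all other libraries for Ogn and overlapped both groups for Aspn. For Ctr1-null minus wild type the log2 difference was -0.18 ± 0.55 (SE) for Ogn and -0.29 ± 0.64 for Aspn. For Ctr1-null + BCS minus Ctr1-null it was 1.04 ± 0.56 and 1.31 ± 0.64, and for Ctr1-null + BCS minus wild type it was 0.86 ± 0.55 and 1.02 ± 0.63. Without Ctr1-null replicate 1, Ctr1-null + BCS minus Ctr1-null was 0.59 ± 0.39 for Ogn and 0.80 ± 0.41 for Aspn, and Ctr1-null minus wild type turned to 0.27 ± 0.39 and 0.22 ± 0.40. Without wild type replicate 1, Ctr1-null + BCS minus wild type was 0.55 for Ogn and 0.90 for Aspn.

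Bgn, or biglycan, a class I protein with chondroitin or dermatan sulphate chains that also signals through Toll-like receptors, was the steadiest. It was at 1845, 1698 and 1807 CPM in wild type, 1449, 1583 and 1767 in Ctr1-null and 1618, 1695 and 1749 in Ctr1-null + BCS, and the groups overlapped in every comparison. The 95% interval of its log2 difference ran from -0.36 to 0.05 for Ctr1-null minus wild type, from -0.13 to 0.28 for Ctr1-null + BCS minus Ctr1-null and from -0.29 to 0.13 for Ctr1-null + BCS minus wild type. A difference of 2-fold lay outside each of these intervals.

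Dcn, or decorin, the class I protein that binds collagen type I and sequesters TGF-beta, was hardly detected. Its counts were 111, 2 and 2 in wild type, 6, 23 and 76 in Ctr1-null and 14, 20 and 22 in Ctr1-null + BCS, that is 0.0372 to 2.31, 0.119 to 1.57 and 0.255 to 0.438 CPM. The highest and the lowest of the 9 libraries were both wild type. The log2 difference for Ctr1-null minus wild type was -0.19 ± 1.18 (SE) with all libraries and 3.92 ± 1.18 without wild type replicate 1, and for Ctr1-null + BCS minus wild type it went from -1.18 ± 1.24 to 2.93 ± 1.25, the second value in each case resting on wild type libraries with 2 counts each. The sign also turned with all 9 libraries in other fits: limma-voom gave 1.19 ± 1.33 and 0.86 ± 1.36 for these comparisons, and a replicate block gave 0.28 ± 1.60 for Ctr1-null minus wild type. That difference was 0.31 ± 1.22 without Ctr1-null replicate 1, so no direction can be given for Dcn. Lum, or lumican, a keratan sulphate protein of cornea and skin, had 5, 0 and 1 counts in wild type, 1, 0 and 12 in Ctr1-null and 1, 3 and 1 in Ctr1-null + BCS, and no difference was detectable at this depth.

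**Figure D1:**
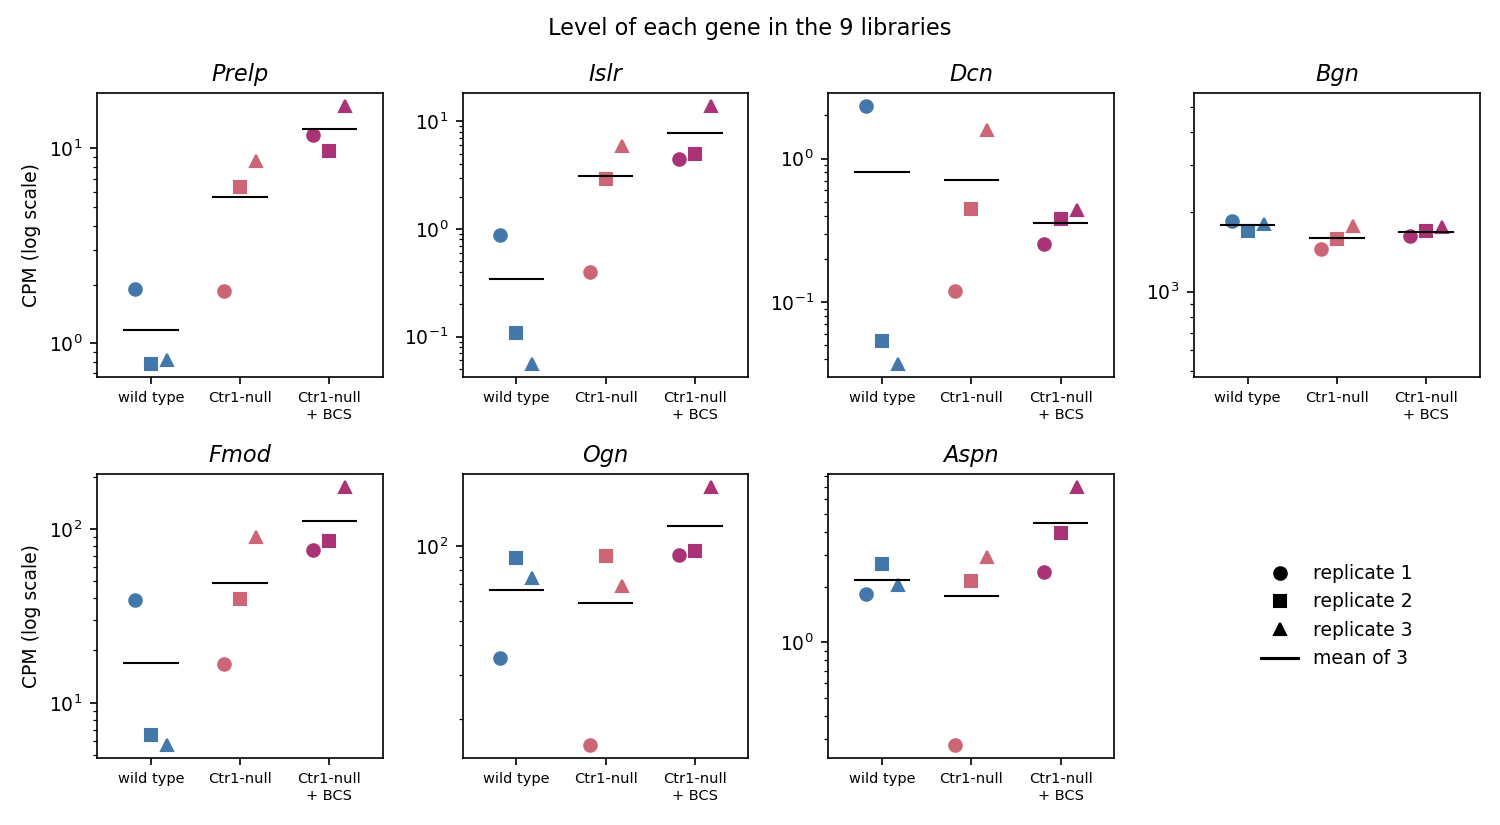
Level of the 7 tested genes in each of the 9 libraries (y axis: CPM, log scale; marker shape: replicate; line: mean of 3 libraries). Prelp, Islr, Fmod, Ogn and Aspn have their highest mean in Ctr1-null + BCS, although Ctr1-null replicate 3 lies above BCS replicates 1 and 2 for Islr and Fmod. Bgn lies between 1449 and 1845 CPM throughout. Wild type replicate 1 (circle) and Ctr1-null replicate 1 (circle) lie apart from their groups for most of the genes.

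Levels were compared between genes as mean CPM per kilobase of exon, using the merged exons of each GENCODE gene. Bgn stood first in each group, at 292 ± 12.5 (SD, n = 3) in wild type, 262 ± 26.2 in Ctr1-null and 277 ± 10.8 in Ctr1-null + BCS. It made up 90.0%, 86.4% and 75.7% of the summed level of the 8 genes. Ogn was next at 25.9 ± 10.9, 22.9 ± 15.1 and 46.9 ± 17.7 CPM per kilobase, followed by Fmod at 5.16 ± 5.73, 14.7 ± 11.3 and 33.7 ± 16.3. Ogn and Fmod did not overlap in wild type but did in the other groups. In wild type Aspn came next, followed by Prelp. In both Ctr1-null groups Prelp (1.55 ± 0.96 and 3.49 ± 0.96 CPM per kilobase) and Islr (1.15 ± 1.03 and 2.88 ± 1.96) came before Aspn (0.76 ± 0.58 and 1.88 ± 0.99), with ranges over libraries that overlapped between neighbours in that order. Prelp, Dcn and Islr overlapped in wild type. Dcn and Lum were last in both Ctr1-null groups.

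Loss of the importer alone, with no chelator, was measured by Ctr1-null against wild type. With edgeR's quasi-likelihood test and adjustment over all 18408 genes, 0 of the 7 tested genes were called at an adjusted p under 0.05. Of all genes 0.0109% (2 genes) were called in that comparison, 3239 genes had an unadjusted p under 0.05, and DESeq2 called 1039 genes, among them Prelp. None of the 7 had groups without overlap, against 18.1% of all genes. Their median log2 difference was -0.16, beside 0.005 for all genes. Without wild type replicate 1, 4 of the 7 (Prelp, Islr, Fmod and Dcn, all higher in Ctr1-null) were called, beside 17.3% of all genes tested in that fit. Leaving out a wild type library assumes that the remaining pair varies like the other groups.

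Ctr1-null + BCS against Ctr1-null asks what the chelator adds to cells that already lack the importer. Here 0 of the 7 were called, beside 0.0543% of all genes (10 genes), while 2708 genes had an unadjusted p under 0.05. DESeq2 called 711 genes, none of them among the 7. Prelp and Ogn were higher in every BCS library than in any Ctr1-null library, beside 13.4% of all genes without overlap in that direction. The difference was above 0 in 6 of the 7 genes, Dcn being the exception, and the median was 1.17 beside 0.0017 for all genes. Without Ctr1-null replicate 1 the median of the 7 was 0.75, again with 0 called.

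Ctr1-null + BCS against wild type compares the ends of the series. Prelp and Islr were called, both higher, so that 2 of 7 were called higher beside 8.56% of all genes. Genes called in either direction made up 15.8% of all genes. In 4 of the 7 (Prelp, Islr, Fmod and Ogn) every BCS library lay above every wild type library, beside 20.0% of all genes. The median log2 difference was 1.02 beside 0.0065 for all genes, and Bgn and Dcn were the genes below 0. Without wild type replicate 1, Fmod was called as well, beside 31.0% of all genes. Fmod was also called without Ctr1-null replicate 1. Prelp was called with each library left out in turn, and Islr was not called without wild type replicate 2 or 3 or without BCS replicate 1 or 3. Since these values took part in choosing the genes, nothing is read from the counts against the background, and the 3 comparisons share libraries, so they are not independent of each other.

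**Figure D2:**
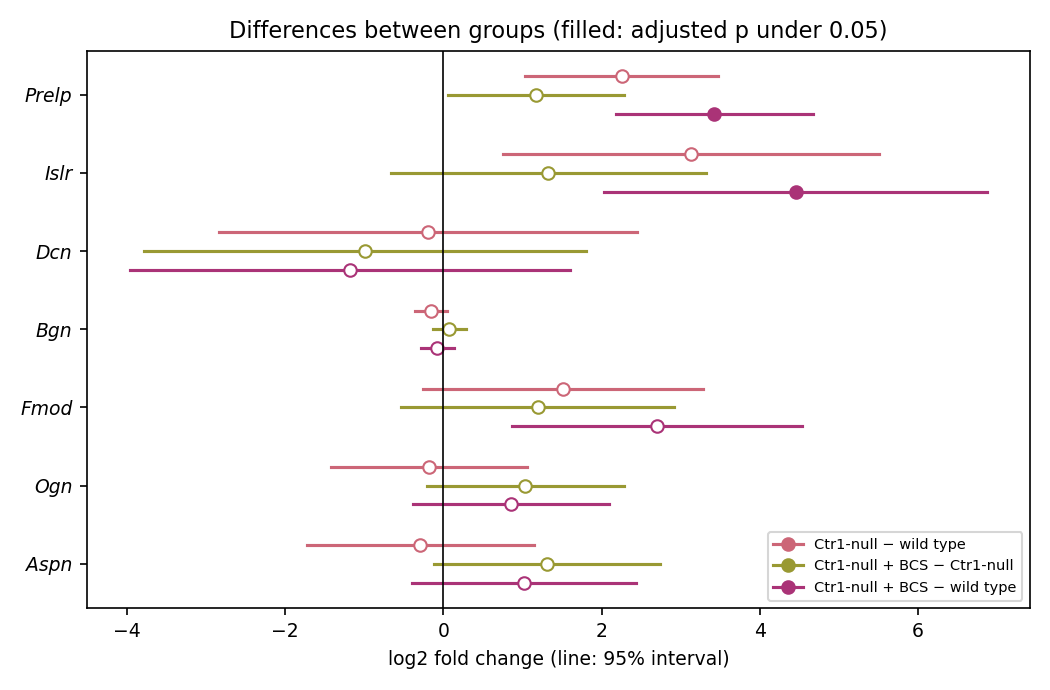
Log2 fold change between groups for the 7 tested genes (x axis; point: estimate from edgeR, line: 95% interval, filled point: adjusted p under 0.05). The intervals for Bgn are the narrowest and lie near 0, those for Dcn and Islr are the widest, and the filled points are Prelp and Islr for Ctr1-null + BCS minus wild type.

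Libraries of the same group differed widely for most of these genes. The ratio of the highest to the lowest library in wild type was 62.1 for Dcn, 15.7 for Islr, 6.80 for Fmod, 2.52 for Ogn, 2.41 for Prelp, 1.46 for Aspn and 1.09 for Bgn, beside a median of 1.30 over all tested genes. In Ctr1-null it was 15.0 for Islr, 13.2 for Dcn, 10.6 for Aspn, 5.79 for Ogn, 5.38 for Fmod and 4.69 for Prelp, beside a median of 1.28. At most 1.91% of all tested genes were at least as spread there as any of these 6, whereas 59.4% were at least as spread as Bgn, at 1.22. In Ctr1-null + BCS the ratio ran from 1.08 for Bgn to 3.11 for Islr, beside a median of 1.21. Wild type replicate 1 differed over 2-fold from each of replicates 2 and 3 in 5 of the 7 genes, and replicates 2 and 3 from each other in 0 of 7. Ctr1-null replicate 1 differed over 2-fold from each of its replicates in 6 of the 7. The direction was not shared. In wild type replicate 1, Islr, Dcn, Fmod and Prelp were high and Ogn low, while in Ctr1-null replicate 1 all 6 were low.

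Across the 9 libraries Prelp, Islr and Fmod kept nearly the same order. Pearson's r of log2 CPM was 0.98 for Prelp and Islr (Spearman's rho 0.917, and r = 0.965 without the 2 libraries farthest from the median of Prelp), 0.986 for Islr and Fmod (rho 1, and 0.958 without 2 libraries) and 0.953 for Prelp and Fmod (rho 0.917, and 0.889). Ogn and Aspn had r = 0.932 (rho 0.783, and 0.838). Over all 9 libraries Ogn was less like Prelp (r = 0.483), Islr (0.427) and Fmod (0.372). Bgn had r between -0.073 and 0.073 with these 3 and Dcn between 0.525 and 0.714. Without the 2 libraries farthest from the median of Prelp, Islr or Fmod, however, Ogn had r = 0.928, 0.955 and 0.895 with them. For each of these genes the libraries left out were wild type replicates 2 and 3. Prelp, Islr and Fmod were low in them, while Ogn was at 89.5 and 74.6 CPM. Leaving them out keeps only replicate 1 of wild type, so the higher r leaves out most of the wild type contrast. Dcn had r = -0.09 with Prelp and 0.139 with Islr without the 2 libraries farthest from the median of Prelp or Islr. With Fmod it had r = 0.79 without the 2 libraries farthest from the median of Dcn. Within groups the likeness took in more of the genes. After subtraction of each group's mean, r was 0.958 for Prelp and Islr, 0.972 for Islr and Fmod, 0.902 for Prelp and Fmod and 0.904 for Ogn and Aspn. It was also 0.84, 0.786 and 0.78 for Bgn with Prelp, Islr and Fmod, and 0.827, 0.915 and 0.963 for Dcn with the same genes. These are descriptions of 21 pairs over 9 libraries that share groups and preparation, and no p is given.

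**Figure D3:**
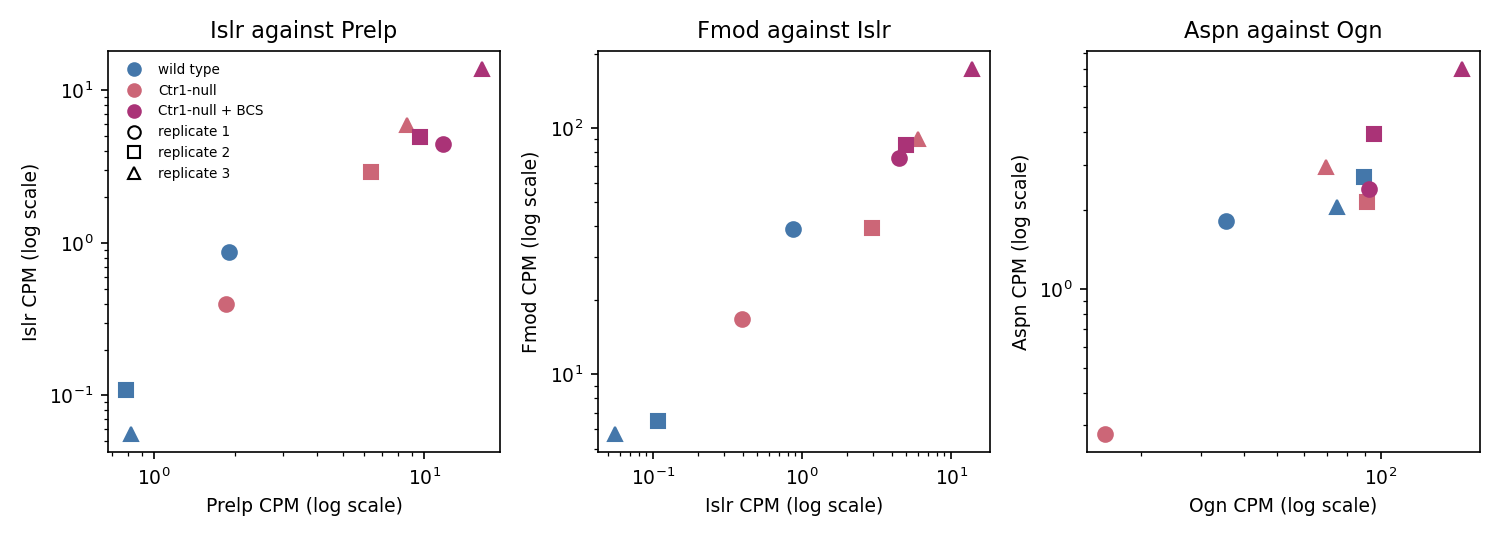
Level of 1 gene against another in the 9 libraries (both axes: CPM, log scale; colour: group, shape: replicate). Libraries with more Prelp have more Islr (r = 0.98), and those with more Islr have more Fmod (r = 0.986), across all groups, while Aspn follows Ogn (r = 0.932) through a low Ctr1-null replicate 1 and a high Ctr1-null + BCS replicate 3.

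Such likeness was common in these libraries. Among 14150 tested protein-coding genes, those most like Prelp were Crocc2 (r = 0.999 over 9 libraries), Smim14 (0.993) and Plin4 (0.993), and Islr ranked 30th and Fmod 199th. For Islr, the most alike were P4ha3 (r = 0.995), Pdzd2 (0.993) and Gstt2 (0.991), with Fmod 14th and Prelp 36th. Their ranges show what is alike and what is not: Crocc2 went from 0.514 CPM in wild type replicate 2 to 6.02 in BCS replicate 3, Smim14 only from 42.1 to 80.2 CPM, and P4ha3 from 5.52 to 14.3 CPM. None of these 6 belongs to the family.

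The family is clustered in the genome, and neighbours were compared (GRCm38, GENCODE M21). On chromosome 1, Prelp (133910304 to 133921414, minus strand) and Fmod (134037254 to 134048277, plus strand) lie 115.8 kb apart, and Optc, or opticin, a class III protein of the vitreous, lies 2.3 kb from Prelp. Optc did not share their range: relative to its own mean it stayed between -0.48 and 0.32 on the log2 scale, whereas Prelp ran from -2.33 to 2.06 and Fmod from -2.64 to 2.28. On chromosome 13, Ecm2, Aspn, Omd and Ogn follow each other on the plus strand with gaps of 11.7, 14.9 and 15.2 kb. All 4 were lowest in Ctr1-null replicate 1, at -0.93 (Ecm2), -2.98 (Aspn), -1.50 (Omd) and -2.14 (Ogn) relative to their means, and highest in BCS replicate 3, at 0.97, 1.67, 0.85 and 1.32. On chromosome 10, Dcn and Lum lie 47.0 kb apart, and the next genes of that cluster, Kera and Epyc, had no counts in any library. Islr lies on chromosome 9 (58156268 to 58204306, minus strand) and Bgn on chromosome X (73483602 to 73495933, plus strand). All 8 are protein coding. Counts are summed over whole genes, and the strand setting of the counting is not given in the sources used here. The antisense gene Gm15851, which shares 350 exon bases with Prelp, had 0 to 1 counts.

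**Figure D4:**
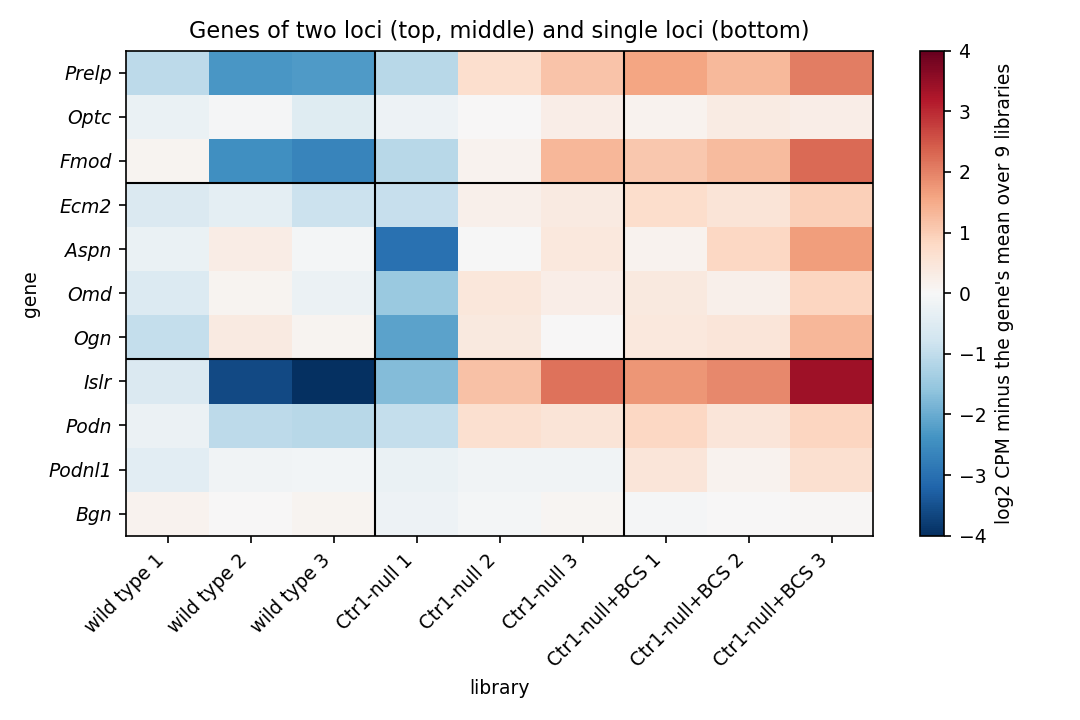
Heat map of log2 CPM minus each gene's own mean over the 9 libraries (rows: genes, grouped as the chromosome 1 cluster, the chromosome 13 cluster and genes at other places; columns: libraries; colour scale from -4 to 4). Prelp, Fmod and Islr go from low in wild type replicates 2 and 3 to high in the Ctr1-null + BCS libraries, Optc and Bgn stay near 0, and the chromosome 13 genes share a low Ctr1-null replicate 1.

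The pathway and marker lists were, like the 8 genes, chosen with earlier results of these libraries known. Adjusted p-values of their genes come from the test over all 18408 genes, and they are no test of the lists. The other leucine-rich matrix proteins held 12 genes, of which 10 were tested. For Ctr1-null + BCS minus wild type, 3 rose, 0 fell and 7 did not pass the test, beside 8.56% of all genes called higher. Ecm2, a class I relative next to Aspn, rose by 1.35 ± 0.31 on the log2 scale (SE, edgeR adjusted p = 0.0216), from 1.33, 1.51 and 1.10 CPM in wild type to 3.28, 2.86 and 3.90. Podn, the class V protein podocan, rose by 1.48 ± 0.38 (edgeR adjusted p = 0.0306), from 6.43, 3.68 and 3.53 CPM to 13.5, 10.7 and 13.8. Podnl1, its close relative, was also called (0.67 ± 0.15, edgeR adjusted p = 0.0189). The estimate was above 0 for all 10 tested genes of that list, with a median of 0.59. In the other comparisons 0 of 10 were called, and the smallest p was that of Podn for Ctr1-null minus wild type (0.97 ± 0.38, edgeR adjusted p = 0.238) and of Podnl1 for Ctr1-null + BCS minus Ctr1-null (0.64 ± 0.15, edgeR adjusted p = 0.121). The 3 calls were absent without wild type replicate 2, wild type replicate 3, BCS replicate 1 or BCS replicate 3, and Podn also without BCS replicate 2.

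Enzymes that build the sugar chains were described next. Of 21 tested genes of chondroitin and dermatan sulphate synthesis, 1 rose and 2 fell in Ctr1-null + BCS against wild type, beside 15.8% of all genes called in either direction, and the list's median was 0.13. Csgalnact1, which starts the chondroitin chain, rose by 2.18 ± 0.45 (SE, edgeR adjusted p = 0.0161), with 8.76, 4.65 and 3.62 CPM in wild type, 5.59, 14.7 and 19.1 in Ctr1-null and 22.1, 21.6 and 33.8 in Ctr1-null + BCS. As for Prelp, wild type replicate 1 lay above and Ctr1-null replicate 1 below the rest of their groups. Ust, which sulphates the uronic acid of the chain, had a log2 difference of -0.61 ± 0.10 (edgeR adjusted p = 0.0078), going from 24.8, 23.8 and 23.2 CPM to 14.9, 16.4 and 15.6, and was called with each of the 9 libraries left out. Chst7, a chondroitin 6-O-sulphotransferase, fell by 0.42 ± 0.09 (edgeR adjusted p = 0.0165). Among 5 tested genes of keratan sulphate synthesis, the chain type of Fmod and Lum, 0 rose and 1 fell: B4galt4, a galactosyltransferase, by 0.97 ± 0.23 (edgeR adjusted p = 0.0227). In the other comparisons 0 genes of either list were called. The smallest p for Ctr1-null minus wild type was that of Ust (-0.61 ± 0.10, edgeR adjusted p = 0.0762) and of B4galt4 (-0.84 ± 0.23, edgeR adjusted p = 0.137), and for Ctr1-null + BCS minus Ctr1-null that of Chst7 (-0.29 ± 0.09, edgeR adjusted p = 0.202) and of Chst1 (-0.42 ± 0.25, edgeR adjusted p = 0.463).

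The matrix partners of the family were looked at next. Of 13 tested genes for fibril-forming and associated collagens and elastin, 2 rose and 0 fell in Ctr1-null + BCS against wild type. In that comparison 15.8% of all genes were called in either direction, a share near that of this list. Col6a1, a chain of the beaded collagen VI to which biglycan and decorin bind, rose by 0.82 ± 0.22 (SE, edgeR adjusted p = 0.0376), from 949, 618 and 647 CPM to 1186, 1198 and 1519. Eln, the elastin gene, rose by 2.53 ± 0.71 (edgeR adjusted p = 0.0407) at a low level, from 0.31 to 1.82 CPM on average. Of 5 tested lysyl oxidases, 0 rose and 2 fell: Loxl2 by 1.00 ± 0.28 (edgeR adjusted p = 0.041), from 181, 323 and 345 CPM to 151, 126 and 147, and Loxl4 by 0.60 ± 0.16 (edgeR adjusted p = 0.0377). Lox, the most studied of them, was at 1167 to 1202 CPM in wild type and 1551 to 2255 CPM in Ctr1-null + BCS, and did not pass the test. The calls of Col6a1, Eln, Loxl2 and Loxl4 were each present in 3 of the 9 fits that leave out a library, so they rest on most of the libraries at once. None of the genes on either list was called in the other comparisons, where the smallest p was that of Col5a2 (-0.70 ± 0.14, edgeR adjusted p = 0.0927) and Loxl2 (-1.21 ± 0.28, edgeR adjusted p = 0.11) for Ctr1-null minus wild type, and of Col5a2 (0.27 ± 0.14, edgeR adjusted p = 0.394) and Lox (0.56 ± 0.22, edgeR adjusted p = 0.292) for Ctr1-null + BCS minus Ctr1-null.

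Proteases, ligands and receptors came last. Of 9 tested proteases known to cut members of the family, 0 were called in any comparison. For Ctr1-null + BCS minus wild type the smallest p was that of Bmp1, which trims the propeptide of biglycan (-0.36 ± 0.12 SE, edgeR adjusted p = 0.076), for Ctr1-null minus wild type that of Mmp14 (-0.33 ± 0.09, edgeR adjusted p = 0.141) and for Ctr1-null + BCS minus Ctr1-null that of Adamts1 (0.63 ± 0.23, edgeR adjusted p = 0.258). Of 12 ligands and receptors bound by the family, 1 rose and 3 fell in Ctr1-null + BCS against wild type. In that comparison 15.8% of all genes were called in either direction. Tlr2, a receptor for soluble biglycan, rose by 1.37 ± 0.28 (edgeR adjusted p = 0.0156), from 2.95, 2.24 and 1.67 CPM to 5.13, 5.13 and 7.45. Tgfb3, a TGF-beta ligand, fell by 0.90 ± 0.18 (edgeR adjusted p = 0.015), from 84.9, 91.3 and 91.0 CPM to 47.4, 47.4 and 48.9. Met, the receptor of hepatocyte growth factor, which decorin binds, fell by 0.80 ± 0.17 (edgeR adjusted p = 0.0181), and Igf1r, another decorin-bound receptor, was the third that fell. In the other comparisons 0 were called, and the smallest p was that of Tgfb3 for Ctr1-null minus wild type (-0.58 ± 0.18, edgeR adjusted p = 0.167) and of Igf1r for Ctr1-null + BCS minus Ctr1-null (-0.30 ± 0.10, edgeR adjusted p = 0.237). Among 17 tested core proteins of other proteoglycans, 0 rose and 2 fell against wild type, Sdc4 by 0.52 ± 0.11 (edgeR adjusted p = 0.0189) and Gpc1 by 0.75 ± 0.16 (edgeR adjusted p = 0.018), both carriers of heparan sulphate at the cell surface. Of that list 0 were called in the other comparisons, with the smallest p for Sdc3 (0.71 ± 0.15, edgeR adjusted p = 0.0988) and Gpc1 (-0.90 ± 0.16, edgeR adjusted p = 0.084). All of these list counts against wild type moved with 1 library: without wild type replicate 1 the other leucine-rich proteins had 4 genes higher, chondroitin and dermatan sulphate synthesis 6 higher and 2 lower, and collagens with elastin 6 higher and 1 lower, and without wild type replicate 3, or without BCS replicate 3, only Ust remained called on any of the 8 lists. For Ctr1-null against wild type, leaving out wild type replicate 1 gave calls on every list: 1 higher and 0 lower among other leucine-rich proteins (Tsku), 5 and 1 in chondroitin and dermatan sulphate synthesis, 2 and 1 in keratan sulphate synthesis, 4 and 2 in collagens with elastin, 1 and 2 in lysyl oxidases, 3 and 2 in proteases, 3 and 1 in ligands and receptors, and 5 and 0 in other core proteins. Without wild type replicate 1, 17.3% of all genes were called for Ctr1-null against wild type. For Ctr1-null + BCS against wild type that share was 31.0%.

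Marker lists of other cell types also differed between groups, in part with another order of libraries than Prelp, Islr and Fmod. The fat cell list summed to 23.7 to 27.5 CPM in wild type, 56.5 to 83.9 in Ctr1-null and 64.8 to 76.7 in Ctr1-null + BCS, and its 3 tested genes of 5 (Pparg, Fabp4 and Cebpa) were all called higher in Ctr1-null + BCS than in wild type. In that comparison 8.56% of all genes were called higher and 15.8% in either direction. Adipoq, which defines mature fat cells, had at most 0.08 CPM. The fat cell sum was highest in Ctr1-null replicate 1, where Prelp, Islr and Fmod were lowest of their group. Pparg, at 67.0 CPM there, made up most of that sum, and Fabp4 was also highest of its group there. Cebpa was not, with 5.59, 5.41 and 11.7 CPM in Ctr1-null replicates 1, 2 and 3. The cartilage list summed to 33.0 to 88.4, 81.8 to 171 and 134 to 167 CPM, with 1 of 7 tested genes (Col10a1) called higher, Col9a1 at 0 in all libraries and Acan at no more than 0.22 CPM. The list for mural cells, which wrap vessels, summed to 1924 to 2778, 1660 to 1706 and 1567 to 1747 CPM, with 3 of its 6 tested genes called higher (Des, Rgs5 and Notch3) and 1 lower (Acta2). The mural sum was thus lower in every library of both Ctr1-null groups than in wild type. Acta2 made up most of each sum, at 1766 to 2611 CPM in wild type, 1503 to 1508 in Ctr1-null and 1341 to 1474 in Ctr1-null + BCS. In every BCS library Notch3, Des and Rgs5 were above all wild type libraries and Cnn1 was below them, while Myh11 overlapped. The fall of the sum is therefore mainly that of Acta2. Macrophage and blood markers summed to 12.5, 5.60 and 6.02 CPM in wild type, 9.34, 15.3 and 17.6 in Ctr1-null and 17.7, 12.4 and 22.0 in Ctr1-null + BCS, with 0 of 3 called and Ptprc at no more than 0.31 CPM. Within each group these libraries had the same order as for Prelp. Of the tendon markers 1 of 3 was called higher and 1 lower, with Tnmd at 0 in all libraries, and of the bone, epithelial, endothelial and neural lists no gene was called against wild type. The part of these cells in the levels of Prelp, Islr and Fmod was not tested. In such bulk RNA, a change in the share of a cell type and a change in RNA per cell cannot be told apart.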

How the data were processed

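RNA was extracted with a Nucleospin kit and libraries were made with the TruSeq RNA kit, per the labels' protocols. FastQC, STAR, Salmon, DESeq2 and the build GRCm38 are named per the submitters' processing notes, without versions or roles. The table used here holds estimated counts per gene, deposited by the authors as whole numbers and not normalised. In a further deposited table of signal values, each count has been divided by a factor for its gene and sample. The geometric mean of these factors was 1 for each of the 15225 genes that had 10 or more counts in all libraries, and no source used here says how they were computed. That table served only to recover the factors for an alternative, where 2 missing values of Lum were set to the library's median factor.

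Of 52661 rows, 52566 matched a symbol in GENCODE M21 by Ensembl identifier without version, 95 did not and 17728 had no counts. Counts were filtered (edgeR's filterByExpr, minimum count 10, minimum total 15), scaled by TMM and fitted by quasi-likelihood in edgeR 4.0.16 under R 4.3.3, in 1 model of 9 libraries and 3 groups (residual degrees of freedom 6, common biological coefficient of variation 0.169). Tests were 2-sided, and p-values were adjusted by Benjamini and Hochberg over 18408 genes, with calls at an adjusted p under 0.05. Standard errors were taken as log2 fold change over the root of F. Correlations used log2 CPM with a prior count of 1. In simulated data for Ctr1-null + BCS against wild type (18011 genes run), the fit found 60 of the 97 genes given a 2-fold change and 90 of the 99 given a 4-fold change, with 5 false calls in 17815 genes. These shares are over all changed genes and need not hold for genes that vary as widely between libraries as Islr, Dcn or Fmod. Each pair of libraries within a group differed by more than sampling noise (chi-square per degree of freedom 5.39 to 81.2), so none was counted as a duplicate.

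The 8 genes, the 8 pathway lists and the 10 marker lists were chosen with earlier results of these data known. From each pathway list and comparison, up to 2 called genes in each direction with the largest change were named or, where none was called, the gene with the smallest p. Igf1r, Lox, Podnl1 against wild type and the marker genes named fall outside this rule; these were picked once their values had been seen. The settings varied were the scaling in edgeR (DESeq2's size factors, upper quartile, library size alone, the authors' factors), no filter or at least 1 CPM in 3 libraries, DESeq2 1.42.0, limma-voom (limma 3.58.1), only the groups compared, a replicate block and leaving out each library in turn. Leaving out libraries for the pathway lists was added after the data were seen. Python 3.11.15 with matplotlib 3.10.9 drew the figures.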

Additional observations from a re-analysis of the deposited data

How the results depend on the processing

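Prelp was called higher in Ctr1-null + BCS than in wild type under all 19 alternatives and Islr under 14 of them. The genes were picked with earlier results of these libraries in view, so these counts describe the settings and test nothing. Over all alternatives, the log2 fold changes ran from 3.19 to 3.96 for Prelp and from 3.74 to 6.58 for Islr. Of 396 fold changes recomputed for the 7 tested genes, 388 moved by less than the spread between libraries and 8 by more. That spread is each gene's own within the groups compared, and it was wide for most of these genes. No value called with all libraries changed sign, but only Prelp and Islr in Ctr1-null + BCS against wild type were so called. Among values not called, the sign changed under 5 alternatives for Dcn and 2 for Ogn in Ctr1-null against wild type, under 2 for Dcn in Ctr1-null + BCS against wild type, and under 1 each for Aspn, Bgn and Dcn in 1 comparison. With all libraries kept, Dcn ran from -0.21 to 1.19 in Ctr1-null against wild type and from -1.19 to 0.86 in Ctr1-null + BCS against wild type, the upper ends coming from limma-voom. For Ctr1-null + BCS against wild type the number called among the 7 was 1 with a replicate block (Prelp) and 1 to 3 when a library was left out, Fmod being the third gene. Fmod was also called with no filter, DESeq2 and limma-voom. For Ctr1-null against wild type that number was 1 (Prelp) with no filter and with DESeq2, and 0 to 4 when a library was left out, the 4 coming without wild type replicate 1. For Ctr1-null + BCS against Ctr1-null it was 0 under every alternative.

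Over all genes, Ctr1-null against wild type gave 2 calls, which became 4 with DESeq2's size factors, upper-quartile factors, library size alone, the authors' factors or the stricter filter, 6 with limma-voom, 265 with no filter, 1039 with DESeq2, 1 with a replicate block, 1 with only the groups compared and 1 to 3254 when a library was left out. Ctr1-null + BCS against Ctr1-null gave 10 calls, which became 114 with no filter, 711 with DESeq2, 2 with a replicate block and 0 to 183 when a library was left out. Ctr1-null + BCS against wild type gave 2916 calls, which became 1543 with a replicate block and 568 to 5840 when a library was left out. Of its calls 1576 were higher, against 2064 of 2848 with library size alone. Whether replicate numbers pair the libraries is not given in the labels. Deviations from group means correlated between -0.291 and 0.248 for same-numbered libraries and between -0.258 and 0.383 for others. These overlapping ranges cannot decide it. The causes of these changes were not tested. At these depths Lum, and Dcn and Islr in wild type replicates 2 and 3, had at most 12 counts, which limits any statement on them.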
